A study of Mus musculus with 21 samples.

Results

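The genes described here are the cytotoxic and effector chemokine genes of spleen T cells, chosen by name as the rows of the deposited table whose gene symbol was Ccl5, Nkg7, Gzmm, Gzma, Gzmb, Gzmk, Prf1, Ctsw, Klrd1 or Ifng. Of these 10 genes, 9 were members of the table of 12994 genes, and Ifng was not analysed here. The study asked whether 4 weeks in an enriched environment (EE, a large cage with running wheels, toys and tunnels) rather than in a standard environment (SE, a smaller cage without objects) changed the transcriptome of T cells. All mice were female C57BL6/J animals placed in EE or SE from weaning, 4 weeks after birth, and the labels name no transgene and no other treatment. Spleen T cells were sorted by flow cytometry as CD45+ CD11b- CD3+ cells and split into CD4+ and CD8+ populations, which gave 6 CD4+ EE, 5 CD4+ SE, 6 CD8+ EE and 4 CD8+ SE samples, with both populations present for 9 mice. The labels place the animals of an environment in a shared cage, so cage and housing cannot be told apart, and each sample is a bulk of sorted cells in which more cells with a transcript and more transcript per cell cannot be told apart.

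Cytotoxic lymphocytes kill by releasing granules in which perforin opens the target membrane and granzymes, a family of serine proteases, enter and trigger death. Granule cargo and the chemokine Ccl5 are typical of effector and memory CD8+ T cells and of natural killer (NK) cells, whereas resting CD4+ T cells carry little of either. Ccl5 (RANTES) attracts T cells and monocytes, and memory CD8+ T cells are known to hold a store of its mRNA.

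Each value is a normalized molecule count, that is, the number of uniquely tagged cDNA molecules counted on a gene after scaling for the depth of the sample. Samples held 145546 to 221454 molecules in all, and 3 molecules, below which counts were treated as low, correspond to a normalized count of 2.37 to 3.78. Cd4 averaged 58.4 in CD4+ and 0.374 in CD8+ samples. The CD8 chain Cd8b1 was found in 11 of 11 CD4+ samples at 1 to 10 molecules, with a mean of 4.92 in SE and 2.54 in EE against 205 in CD8+ samples, and Cd8a was found in 5 of 11 at up to 3 molecules. By its methods the study removed CD4 samples in which both chains were detected. In the table analysed here, 5 of the 11 CD4+ samples had molecules of both. Of 10 NK cell markers listed, 3 (Tyrobp, Fcer1g and Klrb1c) were in the table, and their summed normalized count was 0 to 10.1 in CD4+ and 0 to 1.77 in CD8+ samples. The 8 B cell markers summed to 35.0 to 297 in CD4+ and 33.0 to 101 in CD8+ samples, and 4 of the 6 that could be tested were higher in CD4+ samples. The B cell sum of 35.0 was that of CD4+ SE replicate 1, where the CD4+ median was 188. Of 8 myeloid markers, 4 were in the table, and their sum was 0 to 1.94 in CD8+ EE and 0.856 to 14.4 in CD8+ SE samples and 0 to 11.1 in CD4+ samples, with Lyz2 at 21 molecules over all 4 CD8+ SE samples and at 0 in the 6 CD8+ EE samples. Of 8 markers of gamma-delta and NKT cells, 2 (Trdc and Blk) were in the table, and they summed to 0 to 10.1 in CD4+ and 0 to 3.87 in CD8+ samples. The part of these markers in the results was not tested. Of the 21 samples, CD8+ EE replicate 6 and CD8+ SE replicate 3 stood apart by erythroid (globin) markers, which summed to 581 and 1033.

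Promoters were available in the RefSeq table (GRCm38.p6) for 6 of the 9 members, and the start regions of Nkg7 and Prf1, a pair of genes that differed between the populations, are shown because both hold the letters of the RUNX motif, and Runx3 is the RUNX factor of the CD8+ lineage. The motifs searched on both strands were TGTGGT (RUNX), GGTGTGA (T-box) and TGACTCA (AP-1), which do not overlap each other in these windows. Each window is 300 bases long and spans the annotated start, 5′ to 3′ on the plus strand, at chr7:43436888-43437187 for Nkg7 and chr10:61297586-61297885 for Prf1, with motif matches in capitals (ACCACA is TGTGGT read on the other strand).
Nkg7: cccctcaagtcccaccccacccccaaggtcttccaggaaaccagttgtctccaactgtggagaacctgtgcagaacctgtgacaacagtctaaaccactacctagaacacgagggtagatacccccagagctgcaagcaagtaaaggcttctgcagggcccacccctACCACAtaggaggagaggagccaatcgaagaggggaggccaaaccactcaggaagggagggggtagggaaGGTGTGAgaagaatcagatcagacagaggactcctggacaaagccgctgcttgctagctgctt
Prf1: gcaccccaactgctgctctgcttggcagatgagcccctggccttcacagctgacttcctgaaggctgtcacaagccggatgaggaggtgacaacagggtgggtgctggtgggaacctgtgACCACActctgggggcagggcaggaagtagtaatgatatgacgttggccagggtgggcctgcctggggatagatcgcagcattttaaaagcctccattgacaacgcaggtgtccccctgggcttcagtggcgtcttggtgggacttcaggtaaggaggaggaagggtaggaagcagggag
The window of Nkg7 held 1 RUNX and 1 T-box match, and that of Prf1 held 1 RUNX match. The RUNX letters were also in a window of Gzmm (1), Gzma (1) and Gzmb (2), which were near 0 in both populations, and not in that of Gzmk. The T-box letters were also in a window of Gzmm and in that of Gzmk, and the AP-1 letters were in that of Gzmb (1). Among 32851 promoters of the same length, 16.8% held the RUNX letters, 3.98% the T-box letters and 5.2% the AP-1 letters, so such a match by itself describes the window and no more.

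The question of which population carried these transcripts was asked over all 21 samples, with the CD4+ and CD8+ samples of a mouse entered as separate samples. Nkg7, Klrd1, Ctsw and Prf1 were higher in CD8+ than in CD4+ T cells, by 3.59 to 1.63 on the scale of log2(normalized count + 1), whereas Ccl5 (0.44) did not pass the test. With limma and Benjamini-Hochberg adjustment over 7938 genes, 4 of the 5 members that could be tested passed an adjusted p of 0.05, all of them higher in CD8+. Of all genes tested, 2.07% were higher in CD8+ and 4.4% differed in either direction. With the mouse as a block in limma the same 4 passed. The members were chosen with earlier results of these data known, so this count is not independent of the data. The other 4 members, Gzmm, Gzma, Gzmb and Gzmk, had means of 2 or less over the 21 samples and were not tested in this fit. The standard error that limma gives also draws on the spread of other genes of like abundance. From each gene's own spread it was 0.357 for Nkg7, 0.208 for Klrd1, 0.234 for Ctsw, 0.323 for Prf1 and 0.868 for Ccl5.

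**Figure D1:**
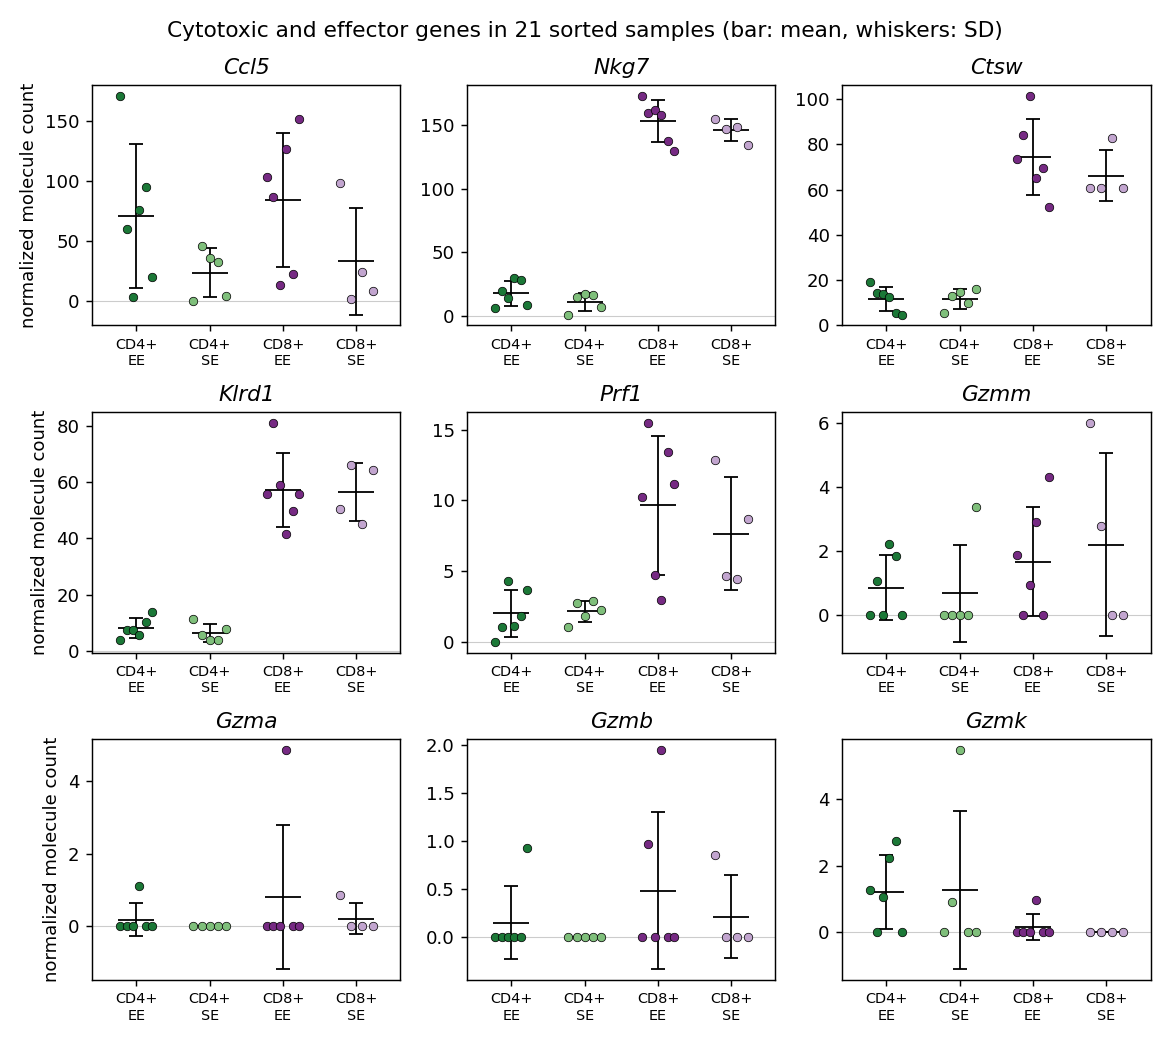
Normalized molecule count (vertical axes, linear, with a scale of its own for each gene) of the 9 members in every sample (points) of the 4 groups (horizontal axes), with the mean (bar) and SD (whiskers). Nkg7, Ctsw and Klrd1 separate the populations without overlap, Ccl5 runs from 0 to 171 in CD4+ and from 1.86 to 152 in CD8+ samples, and the 4 granzymes lie at or near 0.

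Nkg7 (ENSMUSG00000004612, chromosome 7, 43437073 to 43438249 on the plus strand of GRCm38, 4 exons in the principal transcript) encodes a membrane protein of cytotoxic granules. Its normalized count was 130 at the lowest, 152 at the median and 173 at the highest in the 10 CD8+ samples, and 1.03, 14.6 and 30.1 in the 11 CD4+ samples. All 10 CD8+ samples lay above every CD4+ sample, as was the case for 0.529% of all genes tested in that direction. The log2 difference was 3.59 (SE 0.217, adjusted p = 1.85e-21 in limma), and the CD4+ mean was 9.80% of the CD8+ mean.

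Klrd1 (ENSMUSG00000030165, chromosome 6, 129591782 to 129598775, plus strand, 6 exons), which encodes CD94, the partner of the NKG2 lectin-like receptors, had 41.7, 55.8 and 81.2 (lowest, median and highest) in CD8+ and 3.66, 7.48 and 13.8 in CD4+ samples. The populations did not overlap, and the log2 difference was 2.89 (SE 0.188, adjusted p = 4.61e-20 in limma). Ctsw (ENSMUSG00000024910, chromosome 19, 5465043 to 5468507, minus strand, 10 exons) encodes cathepsin W, a cysteine protease of cytotoxic lymphocytes, and had 52.4, 67.3 and 102 in CD8+ and 4.61, 12.8 and 18.9 in CD4+ samples. It too separated the populations fully, with a log2 difference of 2.60 (SE 0.181, adjusted p = 1.06e-18 in limma). Ctsw overlaps Fibp on the opposite strand, and reads of the pair cannot be told apart if the counting ignored strand.

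Prf1 (ENSMUSG00000037202, chromosome 10, 61297833 to 61304680, plus strand, 2 exons), which encodes perforin, rested on few molecules, 3 to 17 in a CD8+ and 0 to 4 in a CD4+ sample. Its normalized count was 2.91, 9.44 and 15.5 (lowest, median and highest) in CD8+ and 0, 1.83 and 4.28 in CD4+ samples. All but 1 of the CD8+ samples lay above the highest CD4+ sample, and the log2 difference was 1.63 (SE 0.334, adjusted p = 0.000463 in limma). Between CD8+ SE and CD4+ SE samples, as a contrast of the fit of all 21 samples, the difference was 1.39 and did not pass (adjusted p = 0.236 in limma).

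The CD4+ means of these 4 genes were 9.80% (Nkg7), 12.8% (Klrd1), 16.2% (Ctsw) and 23.3% (Prf1) of their CD8+ means, while those of Cd8a and Cd8b1 were 0.797% and 1.76%. Nkg7, Klrd1 and Ctsw were detected in 11 of 11 CD4+ samples, at 1 to 31, 3 to 15 and 5 to 16 molecules. With the 4 CD4+ samples that held more than 3 Cd8b1 molecules left out, the same 4 members passed in the same direction. From which cells in the CD4+ samples these transcripts came was not tested.

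The granzymes were barely detected in either population. Gzmm (ENSMUSG00000054206, chromosome 10, 79689020 to 79695261), a granzyme that cuts after methionine or leucine, had 8 molecules in 4 of 11 CD4+ samples and 21 molecules in 6 of 10 CD8+ samples, a CD8+ to CD4+ ratio per molecule sequenced of 2.54 with a 95% exact interval of 1.08 to 6.62. Gzma (ENSMUSG00000023132, chromosome 13, 113093825 to 113100981), a tryptase, had 1 molecule in the CD4+ samples and 6 in the CD8+ samples, of which 5 were in CD8+ EE replicate 4. Gzmb (ENSMUSG00000015437, chromosome 14, 56258838 to 56262260), which cuts after aspartate and activates caspases, had 1 and 4 molecules. At this depth no difference of Gzma or Gzmb was detectable, since the CD8+ to CD4+ ratio per molecule sequenced was 5.80 with a 95% exact interval of 0.703 to 267 for Gzma and 3.86 with an interval of 0.382 to 190 for Gzmb. These intervals cover counting error only.

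Gzmk (ENSMUSG00000042385, chromosome 13, 113171608 to 113225908), a tryptase known from memory T cells, lay the other way. It had 14 molecules in 6 of 11 CD4+ samples and 1 molecule in 1 of 10 CD8+ samples, a CD4+ to CD8+ ratio of 14.5 with a 95% exact interval of 2.20 to 613 for counting error only. Of the 14 molecules, 6 came from CD4+ SE replicate 4, and no CD8+ sample held more than 1. With no filter on the mean, limma gave a log2 difference (CD8+ minus CD4+) of -0.77 (SE 0.291, adjusted p = 0.169), while edgeR with no filter, an alternative added after seeing the data, gave -2.94 (adjusted p = 0.0411). In the same limma fit Gzmm differed by 0.60 (SE 0.364, adjusted p = 0.512). Gzmk overlaps Esm1 on the opposite strand.

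Ccl5 (ENSMUSG00000035042, chromosome 11, 83525778 to 83530518, minus strand, 3 exons) was the 1 member of the 5 tested that did not pass between the populations. Its normalized count was 0, 35.7 and 171 (lowest, median and highest) in CD4+ and 1.86, 55.4 and 152 in CD8+ samples, and no CD8+ sample exceeded the highest CD4+ sample. The CD4+ mean was 77.5% of the CD8+ mean, and the log2 difference was 0.44 (SE 0.467, adjusted p = 0.740 in limma), which does not show that the levels were alike. The difference ranged from -0.01 without CD4+ SE replicate 1 to 0.86 without CD8+ SE replicate 2 (adjusted p = 0.429), and was -0.18 without the 4 CD4+ samples above 3 Cd8b1 molecules.

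The other genes of the cytotoxic pathway were read from 8 lists of 71 genes, of which 47 were in the table and 32 had a mean above 2. Between the populations, 5 of the 32 were higher in CD8+ and 5 were higher in CD4+ samples, where 2.33% of all genes were higher in CD4+, and the median log2 difference was -0.09, against 0.01 for all genes tested. Calls in both directions were found in the lists for granule packaging and for antigen-experienced cells. The lists, like the members, were chosen with earlier results of these data known.

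**Figure D2:**
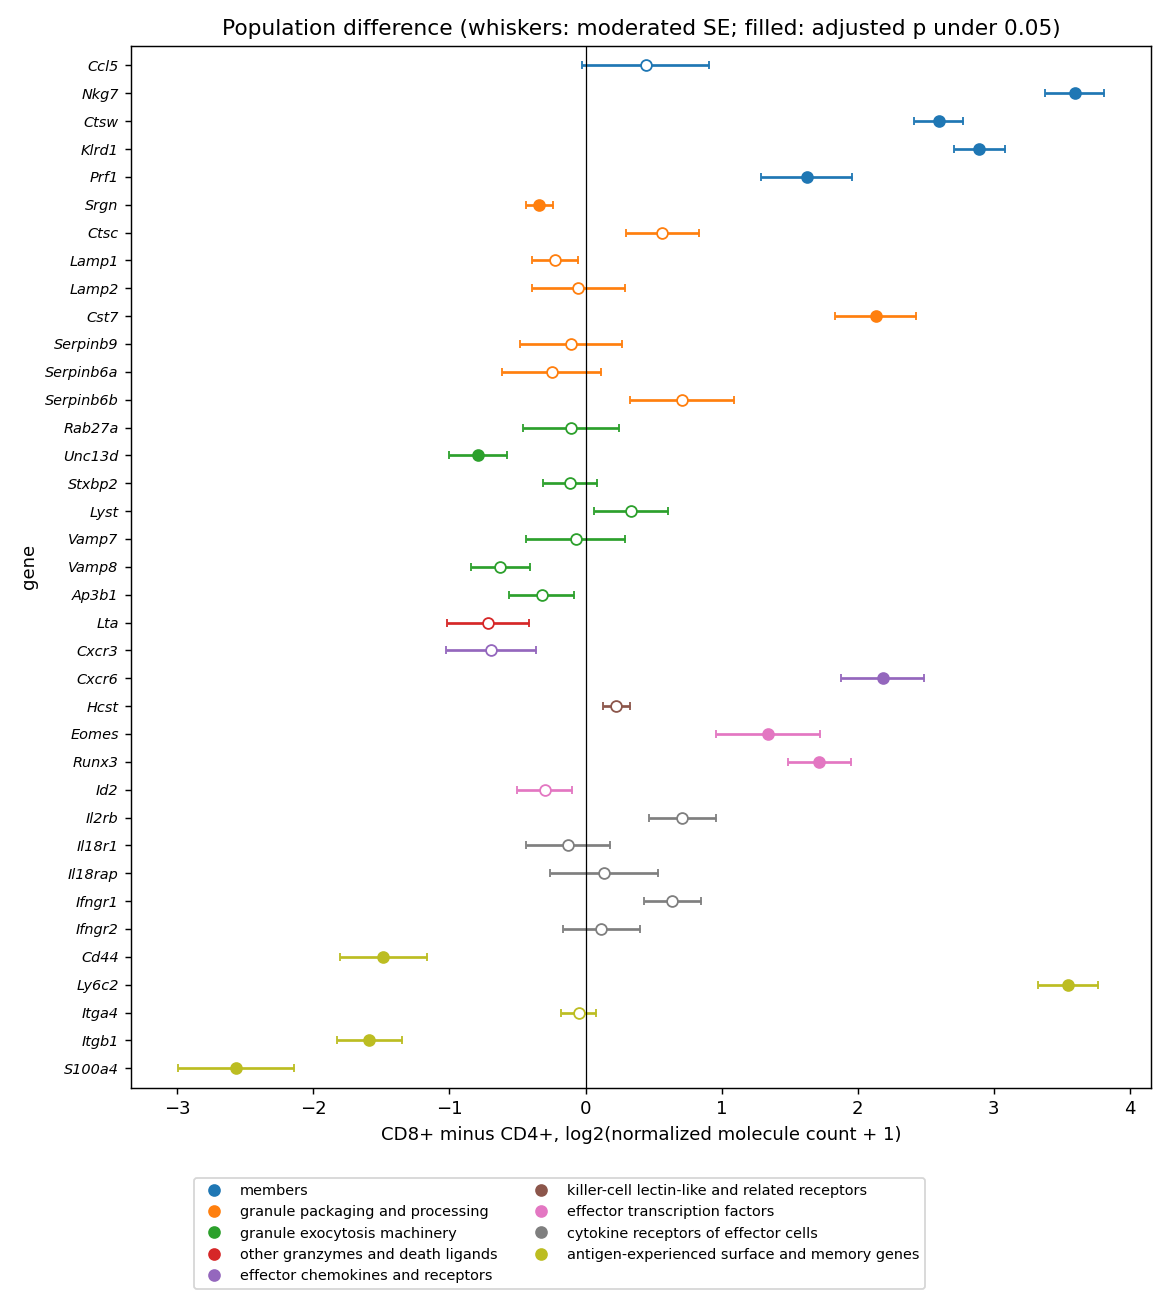
Difference between CD8+ and CD4+ samples on the log2(normalized count + 1) scale (horizontal axis) for the 5 members tested and 32 genes of the pathway lists (vertical axis, coloured by list), with the moderated standard error as whiskers and filled points for an adjusted p under 0.05. Nkg7 at 3.59 and Ly6c2 at 3.55 lie farthest to the right, and S100a4 at -2.57 farthest to the left.

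Of 8 genes for granule packaging and processing, Cst7, an inhibitor of granule cathepsins, was higher in CD8+ samples (20.1 ± 2.92 (SD, n = 10) against 5.05 ± 3.43 (SD, n = 11), log2 difference 2.13, adjusted p = 1.73e-07 in limma). Srgn, the proteoglycan core on which granule proteins are packed, was higher in CD4+ samples (95.1 against 75.1, log2 difference -0.34, adjusted p = 0.0286 in limma), a call that held in 14 of the 21 fits that left out a sample (largest adjusted p = 0.0875) and did not pass without the 2 samples high in erythroid markers (log2 difference -0.30, adjusted p = 0.123) or the 4 CD4+ samples above 3 Cd8b1 molecules (-0.38, adjusted p = 0.0521). Lamp1, a lysosomal membrane protein, differed by -0.22 (SE 0.171). Of 7 genes of the exocytosis machinery tested, Unc13d, which primes granules for fusion, was higher in CD4+ samples (15.3 against 9.25, log2 difference -0.79, adjusted p = 0.0154 in limma), and it did not pass without CD4+ SE replicate 3 (-0.70, adjusted p = 0.0558) or the 4 CD4+ samples above 3 Cd8b1 molecules (-0.80, adjusted p = 0.0636). The SNARE gene Vamp8 (-0.63, SE 0.217) and Stxbp2 (-0.11, SE 0.200) did not pass.

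Among 3 effector transcription factors tested, Runx3 (21.7 ± 7.02 (SD, n = 10) in CD8+, 6.07 ± 2.84 (SD, n = 11) in CD4+) and Eomes (3.84 ± 2.27 and 0.855 ± 0.944) were higher in CD8+ samples, by 1.72 (adjusted p = 7.24e-08 in limma) and 1.34 (adjusted p = 0.0225 in limma). Eomes did not pass without CD8+ SE replicate 1 (log2 difference 1.17, adjusted p = 0.0966). It also did not pass within EE (1.62, adjusted p = 0.0589) or within SE (1.06, adjusted p = 0.572 in limma), as contrasts of the fit of all 21 samples. Id2, a transcriptional inhibitor of effector cells, differed by -0.30 (SE 0.201). The chemokine receptor gene Cxcr6 was higher in CD8+ samples (12.0 against 1.85, log2 difference 2.18, adjusted p = 1.34e-07 in limma), and Cxcr3, also a receptor of effector T cells, differed by -0.69 (SE 0.331, adjusted p = 0.302).

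Of the antigen-experienced list, 5 genes were tested. Ly6c2 was higher in CD8+ samples (119 against 9.94, log2 difference 3.55, adjusted p = 1.10e-20 in limma), and 3 genes that encode adhesion and calcium-binding proteins of activated cells were higher in CD4+ samples, namely S100a4 (log2 difference -2.57, adjusted p = 1.09e-05), Itgb1 (-1.59, adjusted p = 8.70e-07) and Cd44 (-1.49, adjusted p = 0.000851). Between CD8+ SE and CD4+ SE samples, as a contrast of the fit of all 21 samples, none of these 3 passed. The differences were -1.84 for S100a4 (adjusted p = 0.210), -1.12 for Itgb1 (adjusted p = 0.131) and -1.57 for Cd44 (adjusted p = 0.0933 in limma). The integrin gene Itga4 differed by -0.05 (SE 0.130). None of 5 cytokine receptor genes passed, with 0.71 (SE 0.248, adjusted p = 0.0968 in limma) for Il2rb, the shared chain of the IL-2 and IL-15 receptors, and 0.64 (SE 0.208, adjusted p = 0.0649) for Ifngr1. Of the lectin-like receptor list, Hcst, the adaptor DAP10, was the gene tested (0.23, SE 0.0992), and of the death ligands Lta was (-0.72, SE 0.301), and neither passed. Slamf7 and Tnfsf10 had means of 1.77 and 1.45 over the 21 samples and were not tested.

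Of the 5 members tested, Ccl5 was also the one that varied most between mice of 1 group. In CD4+ EE samples its normalized count was 171, 60.1, 3.21, 75.7, 95.1 and 20.3 in replicates 1 to 6. In CD4+ SE samples it was 0 in replicate 1, 45.8 in replicate 3, 35.7 in replicate 4, 32.3 in replicate 5 and 4.50 in replicate 6. The CD4+ EE samples alone spanned nearly the whole range of the CD4+ population. In CD8+ EE samples the count was 103, 87.0, 13.2, 127, 22.9 and 152 in replicates 1 to 6. In CD8+ SE samples it was 98.5 in replicate 1, 1.86 in replicate 2, 23.8 in replicate 3 and 8.65 in replicate 6. EE replicate 3 was low in both populations, whereas SE replicate 1 had no molecule in its CD4+ and 115 molecules in its CD8+ sample.

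The coefficient of variation of Ccl5 within groups was 94.3% in CD4+ and 81.3% in CD8+ samples, against 14.5% and 11.9% from counting error alone. Its within-group variance was 42.2 times the counting variance in CD4+ samples, rank 2 of 7939 genes below Gm26870, where the median over all genes was 1.56. In CD8+ samples it was 46.4 times, rank 5 of 7840 genes below the 4 globin genes Hba-a1, Hbb-bs, Hbb-bt and Hba-a2, with a median of 1.48. The other members tested varied far less, with ratios from 0.837 (Prf1) to 5.10 (Nkg7) in CD4+ and from 1.41 (Nkg7) to 3.49 (Ctsw) in CD8+ samples. Nkg7 in CD8+ samples had a coefficient of variation of 9.24%, close to the 7.77% of counting error.

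**Figure D3:**
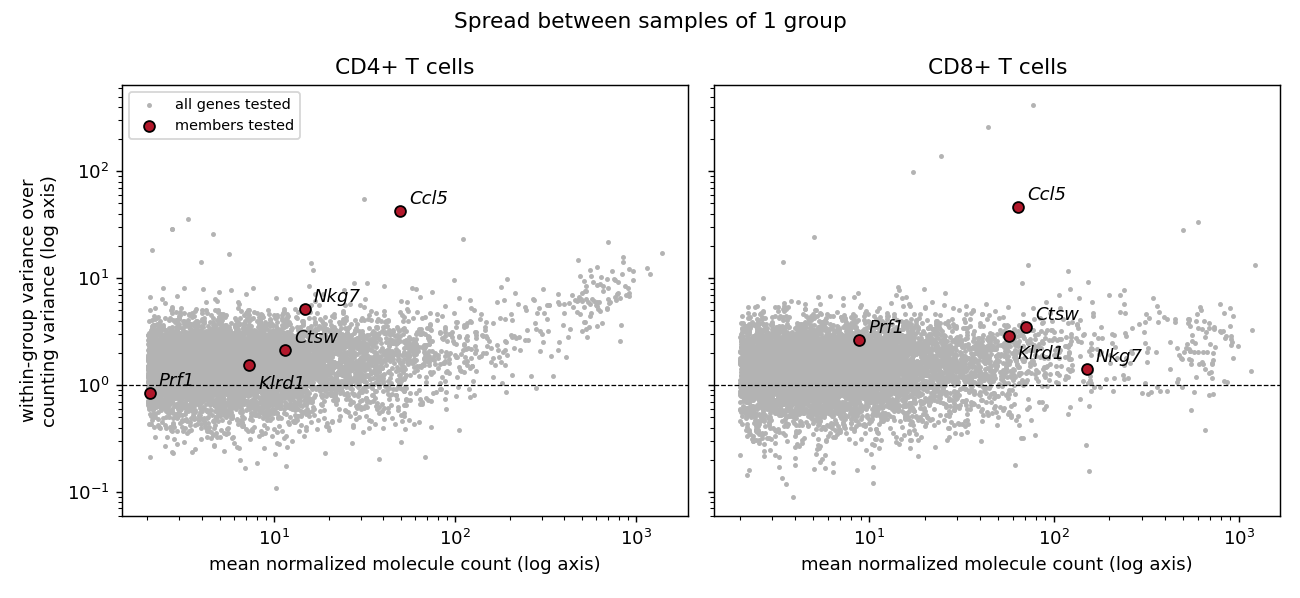
Within-group variance divided by the variance that counting error gives (vertical axes, log) against mean normalized molecule count (horizontal axes, log) in CD4+ (left) and CD8+ (right) samples, with all genes tested in grey, the 5 members in red and a dashed line at 1. Ccl5 lies at 42.2 and 46.4, far above the other members, which reach 5.10 at most.

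The comparison of EE with SE asked whether housing changed these genes. None of the 5 members tested passed in CD4+ T cells, where 0.0126% of all genes did (1 of 7939), and none passed in CD8+ T cells, where 0% did (0 of 7840). At an unadjusted p under 0.05 there were 462 genes (5.82%) in CD4+ and 413 genes (5.27%) in CD8+ samples, and Ccl5 was the member among them in both. After adjustment, edgeR and DESeq2 on the recovered molecules with the same filter also gave 0 members, and the unadjusted p for Ccl5 was 0.000234 in CD4+ and 0.00241 in CD8+ samples with edgeR and 0.129 and 0.167 with DESeq2.

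Ccl5 had higher means in EE in both populations, 70.9 ± 59.9 (SD, n = 6) against 23.6 ± 20.2 (SD, n = 5) in CD4+ and 84.2 ± 55.9 (SD, n = 6) against 33.2 ± 44.5 (SD, n = 4) in CD8+ samples. The ratios of the means were 3.00 and 2.54. The groups overlapped in both populations. Above the highest SE sample of the population lay 4 of 6 CD4+ EE and 3 of 6 CD8+ EE samples. The log2 difference was 1.80 in CD4+ (SE 0.574, adjusted p = 0.629 in limma) and 1.96 in CD8+ samples (SE 0.472, adjusted p = 0.407 in limma). Exact two-sided permutation tests on Ccl5 gave p = 0.193 over 462 splits in CD4+ and p = 0.105 over 210 splits in CD8+ samples.

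The call for Ccl5 depended on how its error was estimated. limma draws the variance of each gene toward that of genes of like abundance, and the moderated standard errors of 0.574 and 0.472 compare with 1.30 and 1.12 from the spread of Ccl5 itself. With no filter on the mean the moderated standard errors fell to 0.341 and 0.294, and the adjusted p for Ccl5 became 0.00200 in CD4+ and 3.79e-06 in CD8+ samples, while the values were the same. Leaving out CD4+ EE replicate 3 gave an adjusted p of 0.0244 in CD4+, and leaving out CD8+ EE replicate 3 or CD8+ SE replicate 1 gave 0.00909 or 0.000445 in CD8+ samples. Single samples also lowered the difference, to 0.88 in CD4+ without CD4+ SE replicate 1 (adjusted p = 0.850) and to 1.12 in CD8+ without CD8+ SE replicate 2 (adjusted p = 0.903). CD4+ SE replicate 1, which had no Ccl5 molecule, was also the CD4+ sample lowest in B cell markers (Cd74 at 10.3, against 189 at the highest in CD4+ SE). Of the B cell markers, 7 were tested between EE and SE in CD4+ and 3 in CD8+ samples and 0 passed, with the smallest unadjusted p in CD4+ for Cd74 (log2 difference 0.74, SE 0.305, unadjusted p = 0.0184, adjusted p = 0.780 in limma), and their part was not tested. Without the 4 CD4+ samples above 3 Cd8b1 molecules, of which 3 were SE and included replicates 1 and 6, the CD4+ difference was 0.09 (SE 0.506).

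**Figure D4:**
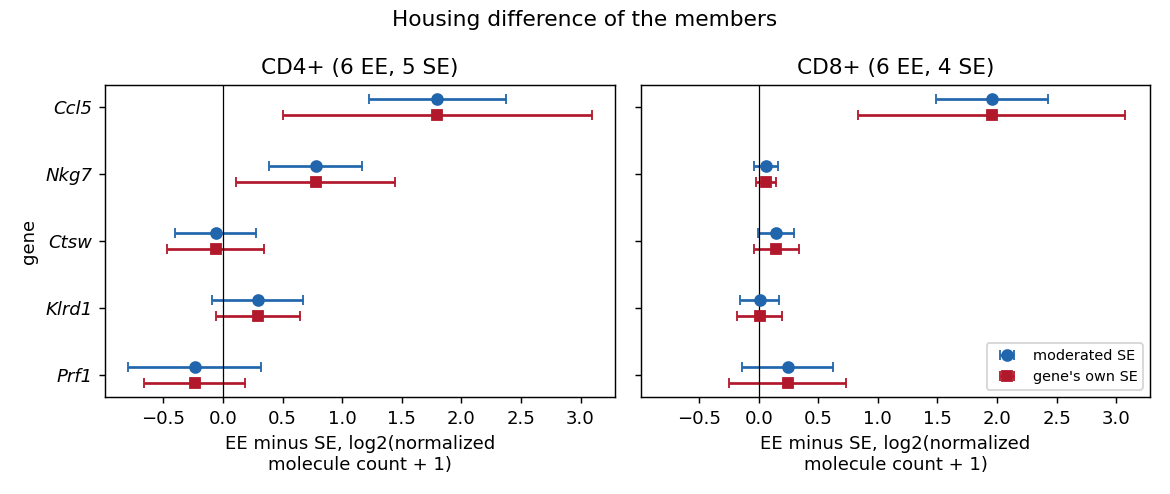
Difference between EE and SE on the log2(normalized count + 1) scale (horizontal axes) of the 5 members tested (vertical axis) in CD4+ (left) and CD8+ (right) samples, with the moderated standard error (blue circles) and the standard error from the gene's own spread (red squares) as whiskers. Ccl5 lies at 1.80 and 1.96 with the widest own error, 1.30 and 1.12, and the other 4 genes lie between -0.24 and 0.78.

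None of the other 4 members tested passed. Nkg7 averaged 17.7 ± 10.0 (SD, n = 6) in CD4+ EE samples and 11.2 ± 7.03 (SD, n = 5) in CD4+ SE samples (log2 difference 0.78, SE 0.392, unadjusted p = 0.0524, adjusted p = 0.835 in limma), and differed by 0.22 (SE 0.338) without CD4+ SE replicate 1 and by -0.29 (SE 0.409) without the 4 CD4+ samples above 3 Cd8b1 molecules, of which that sample is 1. In CD8+ samples, where it was measured with the smallest error of the 5 genes, it differed by 0.06 (SE 0.103). Ctsw differed by -0.06 (SE 0.337) in CD4+ and 0.15 (SE 0.152) in CD8+ samples, and Klrd1 by 0.29 (SE 0.382) and 0.01 (SE 0.164). Prf1 differed by -0.24 (SE 0.558) in CD4+ and 0.24 (SE 0.380) in CD8+ samples. Of the 4 granzymes, 7 molecules of Gzmk were found in each CD4+ group, and 5 and 3 of Gzmm in EE and SE.

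Averaged over both populations, a comparison added after seeing the data, Ccl5 was 1.88 higher in EE (SE 0.467, adjusted p = 0.251 in limma), and the 2 samples of a mouse entered as separate samples. With no filter on the mean this adjusted p was 0.0341. The housing difference was not shown to depend on the population for any member: 0 of 5 passed the interaction test, where 0% of 7938 genes did (393 genes, 4.95%, at an unadjusted p under 0.05, and 0 of 5 members by edgeR or DESeq2). The interaction was 0.16 (SE 0.934) for Ccl5, -0.72 (SE 0.434, unadjusted p = 0.104, adjusted p = 0.994 in limma) for Nkg7 (-0.16 without CD4+ SE replicate 1), 0.21 (SE 0.362) for Ctsw, -0.29 (SE 0.375) for Klrd1 and 0.48 (SE 0.668) for Prf1. The value for Ccl5 was not fixed, since edgeR gave -0.22 and DESeq2 -0.24, a sample left out gave -0.67 (CD8+ SE replicate 2) to 1.07 (CD4+ SE replicate 1), and leaving out the 4 CD4+ samples above 3 Cd8b1 molecules gave 1.86 (unadjusted p = 0.0488, adjusted p = 0.998 in limma).

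Each of these fits tested 32 pathway genes, which were the same 32 as between the populations in the interaction, while Fasl and Klrg1 took the place of Cxcr6 and Eomes in CD4+ and Cd160 that of S100a4 in CD8+ samples by the filter on the mean. Of them, 0 passed between EE and SE in CD4+, in CD8+ or in the interaction with limma. Their median log2 difference was 0.23 in CD4+ and -0.01 in CD8+ samples, against 0.00118 and -0.00780 for all genes tested. The count of those genes with an unadjusted p under 0.05 was 3 in CD4+ and 5 in CD8+ samples, where 5.82% and 5.27% of all genes had one. Il2rb was among both, with 0.86 (SE 0.394) in CD4+ and 0.60 (SE 0.289) in CD8+ samples, and Ly6c2 had the smallest unadjusted p of the 32 genes in CD8+ samples (0.67, SE 0.165, adjusted p = 0.407 in limma).

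Co-variation was examined between samples of a population on the log2 scale, after the mean of each housing group had been removed, for the 10 pairs of the 5 members in each population. None of the 10 pairs passed in CD4+ samples after Benjamini-Hochberg adjustment over the 10 pairs (permutation tests with 100000 pairings, smallest adjusted p = 0.101), and 3 had an unadjusted p under 0.05. Ctsw and Klrd1 were inversely related (r = -0.748, permutation p = 0.0101, rho = -0.627, permutation p = 0.0439). Without the 2 samples with the most extreme Ctsw values r fell in size to -0.434. Leaving out extremes of a gene narrows its range and can lower r by itself, so this does not decide whether the relation rested on them. Ccl5 and Klrd1 were also inversely related (r = -0.677, permutation p = 0.0236, adjusted p = 0.118, rho = -0.764, permutation p = 0.00878), and r was -0.712 without the 2 farthest samples. Ccl5 and Nkg7 moved together in r but less in rank (r = 0.630, permutation p = 0.0364, adjusted p = 0.121, rho = 0.436, permutation p = 0.182), with r = 0.843 without the 2 farthest samples. These counts depended on single samples: 2 pairs passed without CD4+ EE replicate 1, 3 without CD4+ EE replicate 3, and 1 each without CD4+ SE replicate 5 or 6.

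None of the 10 pairs passed in CD8+ samples, with 0 at an unadjusted p under 0.05 in permutation tests and r from -0.349 (Ccl5 and Klrd1) to 0.566 (Nkg7 and Ctsw). The genes that were higher together in CD8+ samples were thus not shown to move together between CD8+ samples of different mice. With 11 and 10 samples and few molecules of Prf1, weak relations were not detectable.

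**Figure D5:**
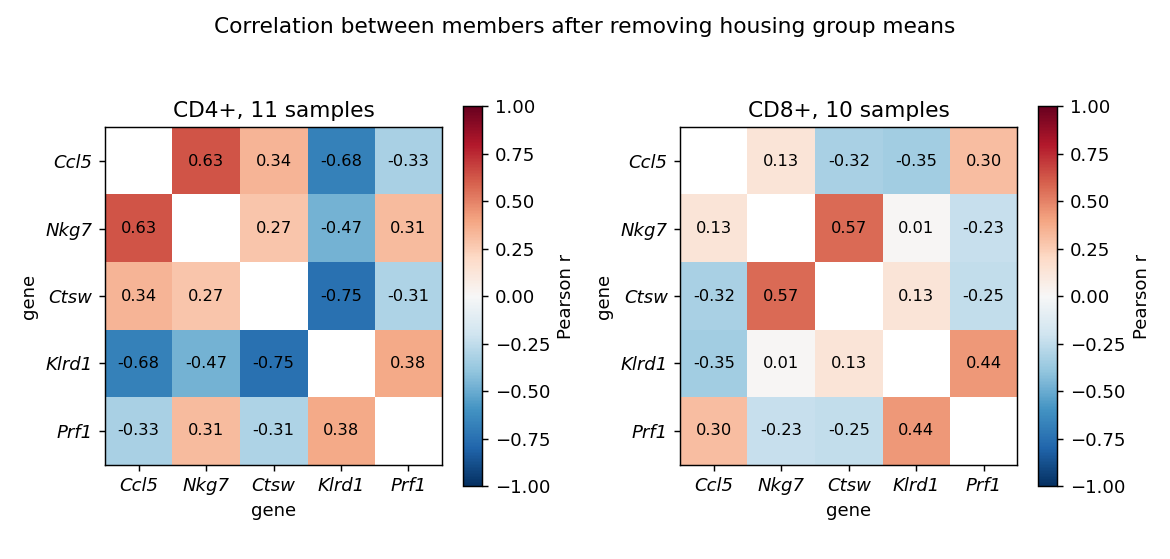
Pearson r between the 5 members tested (both axes) over the 11 CD4+ (left) and 10 CD8+ samples (right) on the log2 scale after removal of housing group means, with blue for negative and red for positive r. The strongest values are -0.75 for Ctsw and Klrd1, -0.68 for Ccl5 and Klrd1 and 0.63 for Ccl5 and Nkg7 in CD4+ samples.

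Within mice, the CD4+ and the CD8+ sample of the same animal were compared for 9 mice. None of the 5 members passed (exact permutation tests, adjusted over the 5 members), with r = 0.0777 (p = 0.838, rho = -0.0333, p = 0.948) for Ccl5 and r = 0.566 (p = 0.119, adjusted p = 0.596, rho = 0.467, p = 0.213) for Ctsw by exact permutation. Without the 2 farthest mice r was 0.117 for Ccl5 and 0.173 for Ctsw. A mouse with much Ccl5 in its CD4+ cells was thus not shown to have much in its CD8+ cells.

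The genes whose pattern over the 21 samples was most like the mean of the 5 members, after removal of the 4 group means and among 4970 genes with a mean above 5, were Vta1 (r = 0.760), Il2rb (0.733), Efhd2 (0.729), Sppl3 (0.727) and Nsg2 (0.723), where the median over all genes was -0.0103. These are the highest of all the values computed and are given as a description. The members themselves were not shown to move together, so likeness to their mean is not likeness to a shared pattern. For Il2rb the likeness was 0.899 in CD4+ and 0.240 in CD8+ samples. The genes most like Ccl5 alone were Arhgef7 (r = 0.740), Calr (0.717), Osgep (0.714), Rnf220 (0.709) and Gm12091 (0.694), and none of the other members was among them. Arhgef7 had r = 0.771 in CD4+ and 0.693 in CD8+ samples.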

How the data were processed

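RNA of spleen CD4+ and CD8+ T cells from 21 samples was made into cDNA with unique molecular identifiers and sequenced on an Ion Proton instrument. The authors trimmed reads (cutadapt), aligned them with STAR 2.4.0a to mm10, counted molecules per gene with Drop-seq tools 1.0.1 on an Ensembl 83 gene model and normalized them with DESeq2, so the deposited signal of a gene is its molecule count divided by the size factor of the sample. Of the deposited values, 100% came out as whole molecules (tolerance 0.001) when multiplied back. Whether counting used strand is not given in the sources used here.

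Groups were taken from the sample labels. The members and the gene lists were chosen with earlier results of these data known. limma 3.58.1 (R 4.3.3, with a mean-variance trend and not robust) was fitted to log2(signal + 1) for genes with a mean above 2, two-sided, with Benjamini-Hochberg adjustment over all genes tested and a threshold of 0.05. The study used DESeq2, which needs counts, and DESeq2 1.42.0 and edgeR 4.0.16 (quasi-likelihood) on the recovered molecules were alternatives. Other alternatives were a pseudocount of 0.5, no filter, a mean above 10 and equal totals. Fits of all samples together, a replicate block, and each sample left out were further ones. The populations were also compared within EE or within SE, as contrasts of the fit of all 21 samples, so the error came from all groups. A log2 difference on this scale understates the change of genes with few molecules. The fits were tested on simulated data. Within a population each sample is a different mouse, and the labels place mice of an environment in a shared cage. CD4+ and CD8+ samples of an animal number and environment come from the same mouse by the labels, which is where the pairing comes from; their deviations from the group means correlated with r = 0.0140 on average over 9 pairs (7938 genes, from -0.0149 to 0.0354). The same numbers in EE and SE are different mice.

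Named genes were every member, every pathway gene with an adjusted p under 0.05, the 2 most abundant genes of each list, and the 5 genes most like the members and most like Ccl5. Spread was the pooled within-group variance over that of Poisson counting. Positions come from GENCODE M21 on GRCm38 and promoters from RefSeq. Permutation tests used SciPy 1.17.1, tables pandas 2.3.3 and NumPy 2.4.6, and plots Matplotlib 3.10.9, all in Python 3.11.15.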

Additional observations from a re-analysis of the deposited data

Results flagged for a closer look

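A gap test for an outlying sample (Dixon, 95%) was applied to the members in each group, 33 times where a gene had any molecule, and marked 9 samples. The rate of about 1 in 20 that chance gives is for continuous values and cannot be set beside this number, since in 7 of the 9 all other samples of the group were at 0 and a single molecule is then marked by construction. Of these, 8 concerned granzymes at or near 0 and rest on 1 to 6 molecules: Gzmm was 3.38 in CD4+ SE replicate 6, Gzma was 1.11 in CD4+ EE replicate 4, 4.85 in CD8+ EE replicate 4 and 0.856 in CD8+ SE replicate 1, Gzmb was 0.922 in CD4+ EE replicate 6 and 0.856 in CD8+ SE replicate 1, and Gzmk was 0.971 in CD8+ EE replicate 4, where all other samples of the group were at 0, and Gzmk was 5.49 in CD4+ SE replicate 4, where the others reached 0.915. CD8+ EE replicate 4 was thus marked for both Gzma and Gzmk, and CD8+ SE replicate 1 for both Gzma and Gzmb. Ctsw was 83.02 in CD8+ SE replicate 3, against 60.5 to 60.8 in the other 3 samples, and the same sample held the largest sum of erythroid markers (1033). Ccl5 was marked in none of the 4 groups. No member was shown to differ in its housing effect between the populations by the interaction test.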

How the results depend on the processing

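The 4 members higher in CD8+ than in CD4+ samples passed with every alternative that tested them, with an exception for Prf1. It did not pass between the populations within SE (3 members) and was not tested with a mean above 10 (3 members). Of the 10 pathway genes that differed, Eomes (1.62 and 1.06), Srgn (-0.32 and -0.37) and Unc13d (-0.57 and -1.01) did not pass within EE or within SE. Cd44, Itgb1 and S100a4 did not pass within SE. Srgn also did not pass without the 2 samples high in erythroid markers (-0.30, against -0.34 with all samples). Without the 4 CD4+ samples above 3 Cd8b1 molecules, Srgn (-0.38) and Unc13d (-0.80, against -0.79) did not pass. The replicate block, which was the mouse in the fits over both populations, changed no call of a member. Over all genes, the populations differed in 349 genes, in 216 with a mean above 10, and in 300 to 362 with a sample left out. Within EE they differed in 211 genes and within SE in 120, both as contrasts of the fit of all 21 samples.

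Between EE and SE, 1 member (Ccl5) passed in CD4+, in CD8+ and averaged over populations with no filter on the mean in limma, and 1 in each with edgeR and no filter, and 0 with the other alternatives that kept all samples; with a sample left out there were 0 to 1 in each. Over all genes in CD4+, where 1 gene passed, there were 0 with a pseudocount of 0.5, a mean above 10, the replicate block or all samples in 1 fit, 3 with no filter, 2 with edgeR, 11 with edgeR and no filter, and 0 to 3 with a sample left out. In CD8+, where 0 passed, there were 3 with no filter, 2 with the replicate block, 9 with edgeR and no filter, and 0 to 3 with a sample left out. In the interaction edgeR with no filter gave 3, and averaged over populations 1 passed with no filter, 7 with edgeR and no filter, and 0 to 2 with a sample left out.

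Between EE and SE within a population, the replicate block pairs numbers that different mice share. These same-numbered samples correlated with r = 0.00833 in CD4+ (5 pairs) and 0.00522 in CD8+ (4 pairs). In the fits over both populations the block was instead the mouse that gave the CD4+ and CD8+ samples. Co-varying pairs in CD4+ numbered 0 to 3 with a sample left out.

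Some housing values and those of Ccl5 between populations changed sign. With a sample left out, Ccl5 between populations ranged from -0.0141 to 0.859, in CD4+ Prf1 from -0.386 to 0.0374 and Ctsw from -0.30 to 0.14, in CD8+ Klrd1 from -0.0972 to 0.0913, and the interaction of Ccl5 from -0.67 to 1.07. Without CD4+ samples above 3 Cd8b1 molecules, Ccl5 was -0.18 between populations, Nkg7 -0.29 between EE and SE in CD4+ (0.78 with all samples) and 0.36 in the interaction (-0.72 with all samples), and the interaction of Ccl5 was 1.86. Without the 2 samples high in erythroid markers, Prf1 was -0.0149 and Klrd1 -0.0919 in CD8+, and Klrd1 was -0.00549 with equal totals. The interaction of Ccl5 was -0.22 with edgeR, -0.24 with DESeq2 and -0.21 with edgeR and no filter. The causes were not tested. Depth limits Prf1 and the granzymes, which had 0 to 17 molecules per sample.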
